A study of Mus musculus with 8 samples.

Results

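The 10 genes described here encode proteins that move calcium into the cytosol or back into the endoplasmic reticulum (ER), or that sense ER calcium. These are the voltage-gated channel pore Cacna1h, the ER calcium sensors Stim1 and Stim2, and the plasma membrane pores Orai1 and Orai2. The others are the IP3 receptors Itpr1, Itpr2 and Itpr3, and the ER calcium pumps Atp2a2 and Atp2a3. The 10 genes were taken by gene symbol from a table of 23997 genes, and all 10 were present. RNA sequencing had been performed on marginal zone B cells of C57BL/6 mice, splenic B cells that sit along the marginal sinus and respond early to antigen in the blood. The labels list 4 libraries of genotype ACKR3+, titled GFP positive, and 4 of genotype ACKR3-, titled GFP negative. ACKR3 takes up the chemokine CXCL12 and clears it from the cell's surroundings without classical G protein signalling. The table gives 1 estimated fragment count and its variance per gene for each of 2 conditions, named q2 and q1, and neither name matches a label. Values are therefore given by column, with no direction relative to ACKR3, no test and no p-value.

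In B cells, stimulation of the antigen receptor activates phospholipase C, which makes the messenger IP3. IP3 opens the IP3 receptors in the ER membrane and releases stored calcium. STIM proteins sense the fall of calcium inside the ER and open ORAI pores in the plasma membrane, a process called store-operated calcium entry, while SERCA pumps, encoded by the Atp2a genes, return calcium to the ER. Voltage-gated channels, known best from nerve and muscle, open when the membrane depolarises.

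The columns summed to 16653774 fragments in q2 and 16877559 in q1, and the depth of single libraries is unknown. Ackr3 itself had 149 fragments in q2 and 1030 in q1. All 7 pan-B-cell markers exceeded 100 fragments in both columns, with sums of 173171 in q2 and 180515 in q1, and so did all 8 markers of marginal zone B cells, with sums of 112707 and 134840. Below, log2 ratios are q2 over q1 after a pseudocount of 1, and the value after ± is the SD implied by the deposited variances. These variances follow mainly the count, so the spread of a single gene between mice cannot be read from them. Ratios were compared over 9582 genes, those whose higher column held 100 fragments or more, and 2.28% of these were at least 2-fold apart, 1.84% toward q2 and 0.438% toward q1. All 10 genes passed this minimum, Cacna1h through its q2 value alone.

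Cacna1h stood far from the other members. Of the 10 genes, 1 exceeded 2-fold toward q2 and 0 toward q1, beside the background of 1.84% and 0.438%. The same counts held at 1.5-fold, a size reached by 3.39% of all genes toward q2 and 1.58% toward q1 (4.97% in all), and for a ratio of more than 2 deposited SD, reached by 4.15% and 2.11% (6.26% in all). Because the genes were chosen by their function with these q2 and q1 counts already known, the count is a description and nothing is read from it. The remaining 9 genes lay within 1.19-fold of equality, 5 toward q2 and 4 toward q1, and their median log2 ratio was 0.03, against 0.00 over all genes compared.

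**Figure D1:**
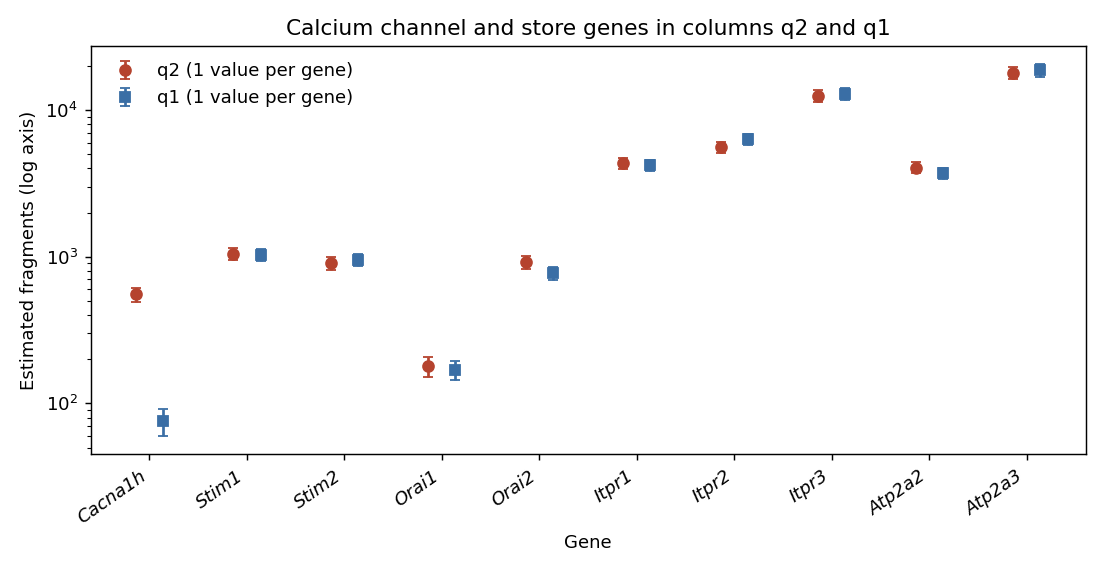
Estimated fragments (log axis) of the 10 genes in column q2 (circles, left of each pair) and column q1 (squares, right), with 1 value per gene and column and bars showing the SD from the deposited variances. Cacna1h has 553 fragments in q2 and 75.9 in q1, while the bars of the columns meet or overlap for each of the other 9 genes.

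Cacna1h encodes the pore of a T-type channel, Cav3.2, which opens at membrane voltages close to rest. The gene lies on chromosome 17 (25374285 to 25433783, minus strand, GRCm38), and its longest annotated transcript has 35 exons. It had 553 ± 63.5 fragments in q2 and 75.9 ± 15.7 in q1. The columns were thus separated by far more than their deposited SDs. The log2 ratio was 2.85 ± 0.34, a 7.20-fold difference. With the fragments taken as plain counts, the 95% counting interval of the plain ratio, 7.28, ran from 5.72 to 9.37. By this ratio the gene ranked 17 toward q2 among the 9582 genes. Tpsg1, a tryptase gene on the opposite strand that overlaps Cacna1h by 158 bases, was listed at 0 in both columns. In whole-population RNA, fewer cells that express a gene and less RNA per cell cannot be told apart.

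Markers of other B cell states were higher in the same column as Cacna1h. All 8 germinal center markers had more fragments in q2, and 7 of them were 2-fold or more apart, with sums of 2953 fragments in q2 and 727 in q1. Of the 8 plasma cell markers 7 had more fragments in q2, and 5 were 2-fold or more apart, with sums of 60512 and 24178. Most of the difference between these sums came from Igj, with 33006 fragments in q2 and 3234 in q1. Irf4, the marker that went the other way, had 8357 and 10113. Sdc1, the plasma cell surface protein CD138, had 484 and 43.9 fragments. All 8 markers of cycling cells were 2-fold or more higher in q2, with sums of 9735 and 2464. Of the 6 follicular B cell markers 5 were higher in q2, 2 of them 2-fold or more, with sums of 20740 and 15977, whereas all 8 marginal zone markers were higher in q1, none by 2-fold. The part of these cells in the Cacna1h difference was not tested.

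Markers of cells other than B cells were also detected. The 11 macrophage and monocyte markers summed to 896 fragments in q2 and 1314 in q1, with 5 of the 7 above the minimum higher in q1, 4 of them 2-fold or more. The other 2 were higher in q2, and of these Ly6c2, a monocyte gene, was 3.46-fold apart. The 8 T cell markers summed to 1129 and 954 fragments, most of them from Lck, and Cd3e had 36.4 in q2 and 22.8 in q1. Sums were 387 in q2 and 229 in q1 for dendritic cells, with Itgax 2.18-fold higher in q2. NK cell markers summed to 263 in q2 and 311 in q1, mostly from Prf1 with 189.5 and 265.3. The other NK markers were below the minimum and each had more fragments in q2. Sums in q2 and q1 were 25.6 and 17.8 for neutrophils, 101.1 and 103.1 for platelets, and 89.5 and 98.6 for erythroid cells. For stromal and endothelial cells they were 3601 and 3502, nearly all Pecam1, and the other 6 of these markers were below the minimum. Of all markers found, none was at 0 in both columns, the stromal genes Pdgfrb and Col3a1 were at 0 in q2, and the platelet genes Pf4 and Gp9 were at 0 in q1. The part of these cells in the results was likewise not tested.

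**Figure D2:**
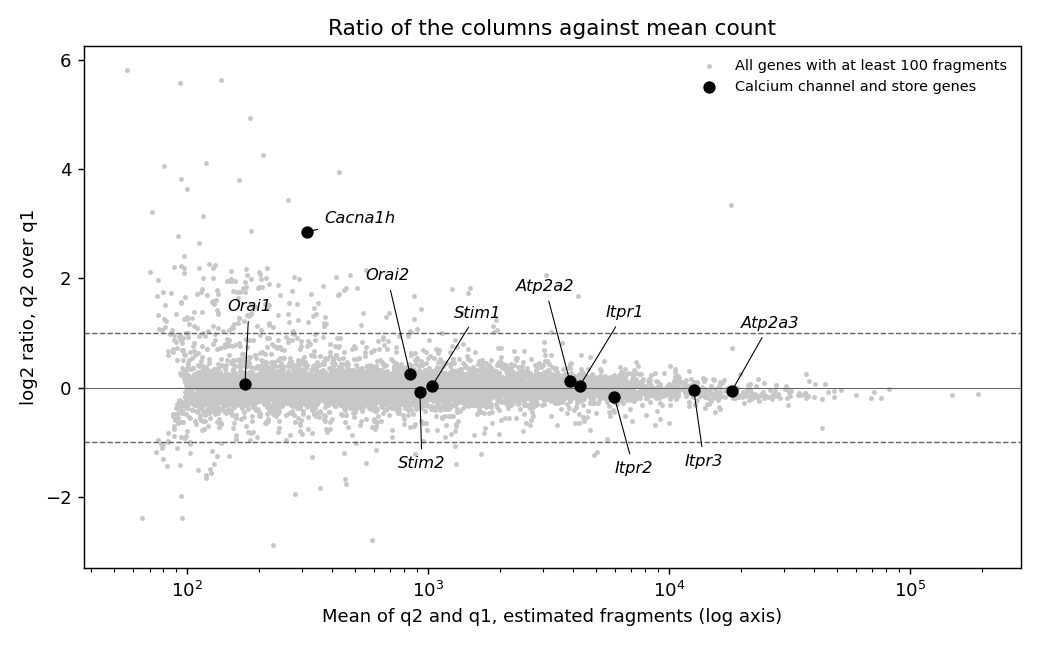
Log2 ratio of q2 over q1 against the mean of the columns in estimated fragments (log axis) for the 9582 genes compared (grey) and the 10 calcium genes (black), with dashed lines at 2-fold. Cacna1h lies at 2.85, and the other 9 genes lie between -0.17 and 0.25.

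The ER calcium sensors were near equal between the columns. Stim1, on chromosome 7 (102267806 to 102437319, plus strand), encodes the main sensor that opens ORAI pores when the store empties. It had 1050 ± 99.9 fragments in q2 and 1031 ± 98.5 in q1, a log2 ratio of 0.03 ± 0.19. Stim2, on chromosome 5 (53998499 to 54121057, plus strand), encodes a sensor that responds to smaller falls of ER calcium. It had 901 ± 88.1 fragments in q2 and 953 ± 92.2 in q1, a log2 ratio of -0.08 ± 0.20. For both genes the columns overlapped within 1 deposited SD. An interval of 2 SD around the log2 ratio ran from -0.36 to 0.42 for Stim1 and from -0.48 to 0.31 for Stim2, so smaller differences were not resolved.

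Among the ORAI pores, Orai2 had the larger ratio. Orai1, on chromosome 5 (123015074 to 123030456, plus strand), encodes the pore-forming subunit of the classical store-operated channel of lymphocytes. It had 179 ± 26.7 fragments in q2 and 169.7 ± 25.7 in q1, a log2 ratio of 0.08 ± 0.30 with a 2 SD interval from -0.53 to 0.69. This is the widest interval among the 9 genes near equality, and Orai1 had the fewest fragments of them. Orai2, also on chromosome 5 (136147459 to 136170713, minus strand), encodes a related subunit that can join ORAI1 in one channel. It had 917 ± 89.5 fragments in q2 and 771 ± 77.2 in q1, a log2 ratio of 0.25 ± 0.20. This 1.19-fold difference was 1.24 times its deposited SD, and the other 8 members besides Cacna1h lay within 1 SD of equality. Orai3, the third ORAI gene, had 928 fragments in q2 and 943 in q1, at -0.02 ± 0.20.

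The IP3 receptor genes, whose products form the tetrameric release channels of the ER, were abundant in both columns. Itpr1, on chromosome 6 (108213096 to 108551109, plus strand), had 4329 ± 372 fragments in q2 and 4222 ± 364 in q1, at 0.04 ± 0.18. Itpr2, also on chromosome 6 (146108299 to 146502223, minus strand), encodes the type with the highest affinity for IP3. It had 5591 ± 480 fragments in q2 and 6310 ± 544 in q1, at -0.17 ± 0.18, the lowest ratio of the 10 genes. Itpr3, on chromosome 17 (27057304 to 27122223, plus strand), had 12512 ± 1137 fragments in q2 and 12900 ± 1174 in q1, at -0.04 ± 0.19, or 0.11 after correction for GC content, transcript length and mean count. All 3 genes differed between the columns by less than 1 deposited SD. With the fragments taken as plain counts, the 95% counting interval of the plain ratio was narrower, 0.855 to 0.919 for Itpr2. Such intervals excluded equality for 5 of the 9 genes. The scaling of the counts is not stated, so the width of these intervals may not match the counting error, and nothing is read from that number.

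The SERCA pump genes were also near equal. Atp2a2, on chromosome 5 (122453513 to 122502225, minus strand), encodes SERCA2, the pump found in nearly all cell types. It had 4045 ± 347 fragments in q2 and 3729 ± 322 in q1, at 0.12 ± 0.18. Atp2a3, on chromosome 11 (72961169 to 72993044, plus strand), encodes SERCA3, a pump typical of blood cells. It had 17875 ± 1707 fragments in q2 and 18657 ± 1796 in q1, at -0.06 ± 0.20, or 0.10 after the same correction. The direction of Atp2a3 and Itpr3 thus depended on that correction, and both lay within 1 SD of equality without it. The third gene of the family, Atp2a1, known from skeletal muscle, had 46.4 ± 32.5 and 59.4 ± 36.9 fragments in q2 and q1.

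Levels were compared between genes as fragments per kilobase of the longest annotated transcript. The order of the 10 genes was the same in both columns, although Orai2 and Stim2 were level in q1, at 193 each. Atp2a3 was highest, with 3881 ± 371 fragments per kilobase in q2 and 4050 ± 390 in q1, above about 98.1% of the 9146 genes that had both 100 fragments and a matched length. Itpr3 followed with 1392 ± 126 in q2 and 1435 ± 131 in q1, and then Atp2a2 with 713 ± 61.2 in q2 and 657 ± 56.7 in q1. Each of the gaps from Atp2a3 to Itpr3 and from Itpr3 to Atp2a2 exceeded 4 SD of the difference in both columns. Itpr2 had 479 ± 41.1 and 540 ± 46.6 fragments per kilobase in q2 and q1, and Itpr1 had 439 ± 37.7 and 428 ± 36.9. By this length Itpr2 and Itpr1 did not differ beyond 2 SD in either column, while Atp2a2 lay 3.18 SD above Itpr2 in q2 and 1.59 SD above it in q1. Over the union of annotated exons Itpr2 had 378 fragments per kilobase in q2 and 426 in q1, and Itpr1 had 236 and 230. The nearness of these 2 genes thus depended on the length used.

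The STIM and ORAI genes among the 10 were less abundant. Orai3, which is outside the 10, had 433 fragments per kilobase in q2 and 440 in q1, near Itpr1. Stim1 had 241 ± 22.9 fragments per kilobase in q2 and 236 ± 22.6 in q1, close to the median over the genes compared, which was 235 in q2 and 232 in q1. Orai2 had 229.9 ± 22.4 in q2 and 193 ± 19.4 in q1, and Stim2 had 182 ± 17.9 and 193 ± 18.7. The neighbours Stim1 and Orai2, and Orai2 and Stim2, did not differ by 2 SD in either column. Their order also rested on the transcript length used: over the union of annotated exons, Stim1 came after Stim2 and Orai2 in both columns, and 8 of the 10 genes kept their positions. Orai1 had 95.4 ± 14.2 fragments per kilobase in q2 and 90.5 ± 13.7 in q1. Cacna1h was lowest in both columns, with 67.2 ± 7.72 in q2 and 9.23 ± 1.91 in q1, 1.75 SD below Orai1 in q2 and 5.86 SD below it in q1.

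Within each store family the makeup was close between the columns. By fragments per kilobase, Itpr3 made up 60.3% ± 2.6 of the 3 IP3 receptor genes in q2 and 59.7% ± 2.6 in q1. Atp2a3 made up 84.2% ± 1.7 of the 3 SERCA genes in q2 and 85.7% ± 1.6 in q1. Stim1 held 56.9% ± 3.3 of the STIM pair in q2 and 55.0% ± 3.4 in q1. Orai3 was the most abundant ORAI gene by this measure, at 57.1% ± 3.1 in q2 and 60.8% ± 3.0 in q1, followed by Orai2 at 30.3% ± 2.7 and 26.7% ± 2.6 and by Orai1 at 12.6% ± 1.8 and 12.5% ± 1.8. These shares rest on the longest annotated transcript, and their SDs do not cover that choice. Over the union of annotated exons Stim2 lay above Stim1 in both columns, so the majority within the STIM pair reversed. Itpr3 stayed above Itpr2 and Itpr1 with either length. By the longest transcript, each share in all 4 families differed between the columns by less than 1 SD of the difference. The summed levels were likewise close, with log2 ratios of -0.06 ± 0.12 for the IP3 receptors, -0.04 ± 0.17 for the SERCA pumps, 0.07 ± 0.14 for the ORAI pores and -0.02 ± 0.14 for the STIM sensors.

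The voltage-gated pores had a different makeup in the columns. Cacna1e, which encodes the R-type pore Cav2.3, was the most abundant, with 7433 ± 647 fragments in q2 and 11026 ± 997 in q1, at -0.57 ± 0.18. Cacna1i, which encodes the T-type pore Cav3.3, had 953 ± 94.5 fragments in q2 and 388 ± 46.6 in q1, at 1.29 ± 0.22. The T-type genes Cacna1h and Cacna1i were thus higher in q2 and the R-type gene in q1, each by more than 3 deposited SD. Of the summed fragments per kilobase of the 10 pore genes, Cacna1h took 9.54% ± 1.16 in q2 and 1.12% ± 0.25 in q1, Cacna1i took 13.8% ± 1.5 and 4.81% ± 0.67, and Cacna1e took 70.8% ± 2.3 and 89.6% ± 1.2. The third T-type gene, Cacna1g, had 0.634 fragments in q2 and 0 in q1, so that the T-type total came from Cacna1h and Cacna1i. That total was 165 ± 12.4 fragments per kilobase in q2 and 48.9 ± 5.1 in q1, a log2 ratio of 1.75 ± 0.19, while the total of all 10 pore genes was 704 ± 45.5 in q2 and 825 ± 67.3 in q1, at -0.23 ± 0.15.

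**Figure D3:**
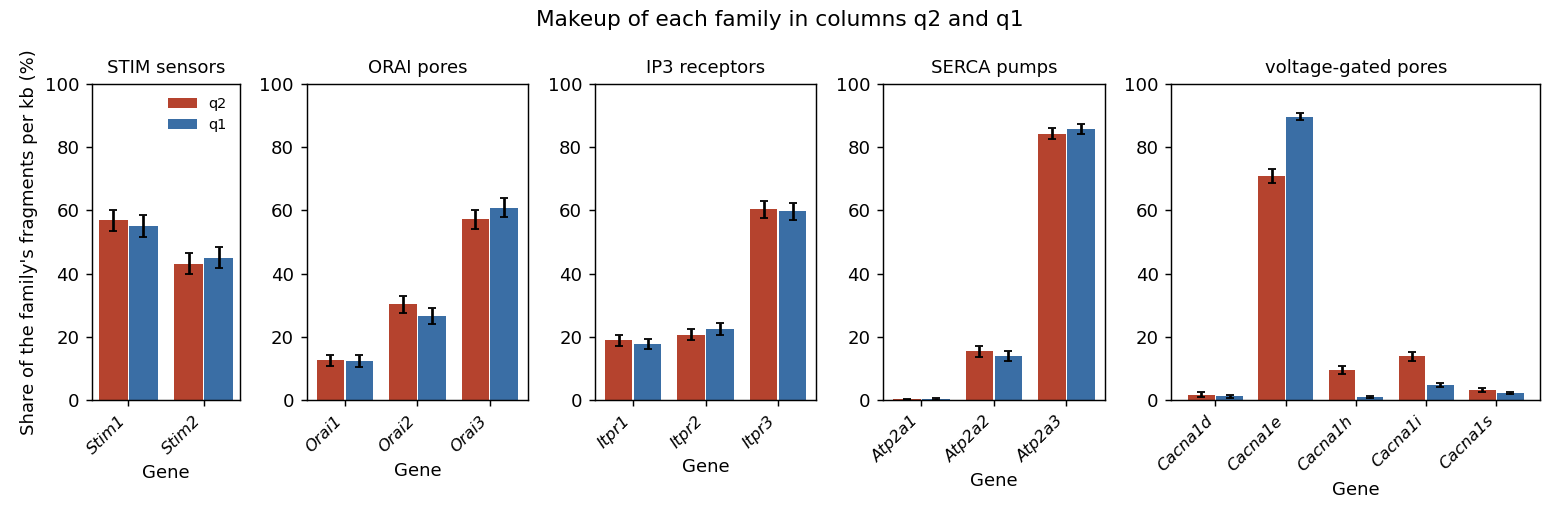
Share of each family's fragments per kilobase (percent, axes from 0) held by each gene in q2 (left bar) and q1 (right bar), with bars showing the SD from the deposited variances; 5 of the 10 voltage-gated pore genes are drawn. The store families keep their makeup, whereas Cacna1h and Cacna1i have larger shares in q2 and Cacna1e in q1.

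Beside Cacna1h, 4 of the 9 other pore genes reached 100 fragments. Cacna1i, 2.45-fold apart, Cacna1s and Cacna1d lay toward q2 and Cacna1e toward q1, and the median log2 ratio of these 4 was 0.27. Cacna1s, the skeletal muscle pore, had 146 ± 23.6 fragments in q2 and 119 ± 20.4 in q1, at 0.29 ± 0.34. Of the 16 auxiliary subunit genes 3 reached 100 fragments, all higher in q1 and none by 2-fold, with a median of -0.38. At a minimum of 20 fragments the median was -0.298 over 4 genes. With no minimum it turned to 0.329 over 11 genes. That value is the ratio of Cacng6 and Cacng7, each with 0.256 fragments in q2 and 0 in q1. The direction of the list thus rests on few genes. Cacnb4, a cytosolic beta subunit, had 189.6 ± 28.1 fragments in q2 and 345 ± 41.9 in q1, at -0.86 ± 0.27. The other beta gene above the minimum, Cacnb1, stood at -0.11 ± 0.35, and Cacna2d4, an alpha2delta subunit, at -0.38 ± 0.41.

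Partners of store-operated entry and the makers and regulators of IP3 signals mostly stood near equality. Of the 9 entry partners 7 reached the minimum, 2 higher in q2 and 5 in q1, none by 2-fold, with a median log2 ratio of -0.07. Tmem66, the older symbol of SARAF, which slows store-operated entry, had 414 ± 48.2 fragments in q2 and 261 ± 34.5 in q1, at 0.66 ± 0.25. Esyt1, a tether between the ER and the plasma membrane, stood at -0.11 ± 0.18 and Efcab4b, the older symbol of the ORAI regulator CRACR2A, at -0.20 ± 0.37. Of the 21 genes of IP3 production and receptor control 16 reached the minimum, 7 higher in q2 and 9 in q1, none by 2-fold, with a median of -0.03. The largest ratios there were those of Erp44, an ER protein that inhibits the type 1 receptor, at 0.45 ± 0.18, Ahcyl2, a relative of the IP3 receptor binding protein IRBIT, at -0.42 ± 0.19, and Plcg1, a phospholipase C, at -0.35 ± 0.20. Plcg2, the phospholipase C used by the B cell antigen receptor, had 7623 ± 664 fragments in q2 and 7138 ± 619 in q1, at 0.09 ± 0.18, a gene named after its value was seen.

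Calcium clearance and mitochondrial uptake differed little. Of the 13 other pumps, exchangers and their regulators 3 reached the minimum: Atp2b1, the plasma membrane pump PMCA1, at 0.11 ± 0.18, Sri, encoding sorcin, at 0.01 ± 0.18, and Atp2c1, a Golgi pump, at -0.01 ± 0.18. Of the 11 mitochondrial genes 10 reached the minimum, 8 toward q2 and 2 toward q1, with a median log2 ratio of 0.09. Among them were Vdac3, an outer membrane channel, at 0.23 ± 0.19, and Slc8b1, the mitochondrial sodium-calcium exchanger, at 0.18 ± 0.27. No gene of these lists above the minimum was as far apart as 1.5-fold.

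Genes for the calcium-binding proteins of the ER lumen were higher in q2 more often than not. All 15 genes of the list on ER buffers and leak reached the minimum, 10 toward q2 and 5 toward q1, none by 2-fold, with a median log2 ratio of 0.18. Hsp90b1, the ER chaperone GRP94, had 22845 ± 2372 fragments in q2 and 13769 ± 1282 in q1, at 0.73 ± 0.20. Pdia6, a disulfide isomerase, stood at 0.48 ± 0.18, and Rcn3, a reticulocalbin, at 0.33 ± 0.34. Several of these proteins are general chaperones of the secretory pathway, and the plasma cell markers described above were higher in the same column. The part of plasma cells in these ratios was not tested.

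Among the other cation channels 16 of 29 genes reached the minimum, 5 toward q2 and 11 toward q1, with a median log2 ratio of -0.08. Trpm2, a channel gated by ADP-ribose, had 838 ± 83.2 fragments in q2 and 1748 ± 157 in q1, at -1.06 ± 0.19, the gene of this list that was at least 2-fold apart. Kcnn4, a potassium channel opened by calcium, had 539 ± 59.7 fragments in q2 and 319 ± 39.6 in q1, at 0.76 ± 0.24. Mcoln3, a cation channel of endosomes and lysosomes, stood at -0.50 ± 0.24. Downstream of calcium, 18 of 24 calmodulin, calcineurin and NFAT genes reached the minimum, 11 higher in q2 and 7 in q1, none by 1.5-fold, with a median of 0.06. Calm2, which encodes calmodulin, stood at 0.28 ± 0.18, and Ppp3ca, a catalytic subunit of calcineurin, at 0.27 ± 0.19.

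Across the 9 lists together, 92 of 147 genes reached the minimum, 48 toward q2 and 44 toward q1, with a median log2 ratio of 0.01, against 0.00 over all genes compared. At least 2-fold apart were Cacna1i toward q2 and Trpm2 toward q1, which is 1 gene each way, beside 1.84% and 0.438% of all genes.

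**Figure D4:**
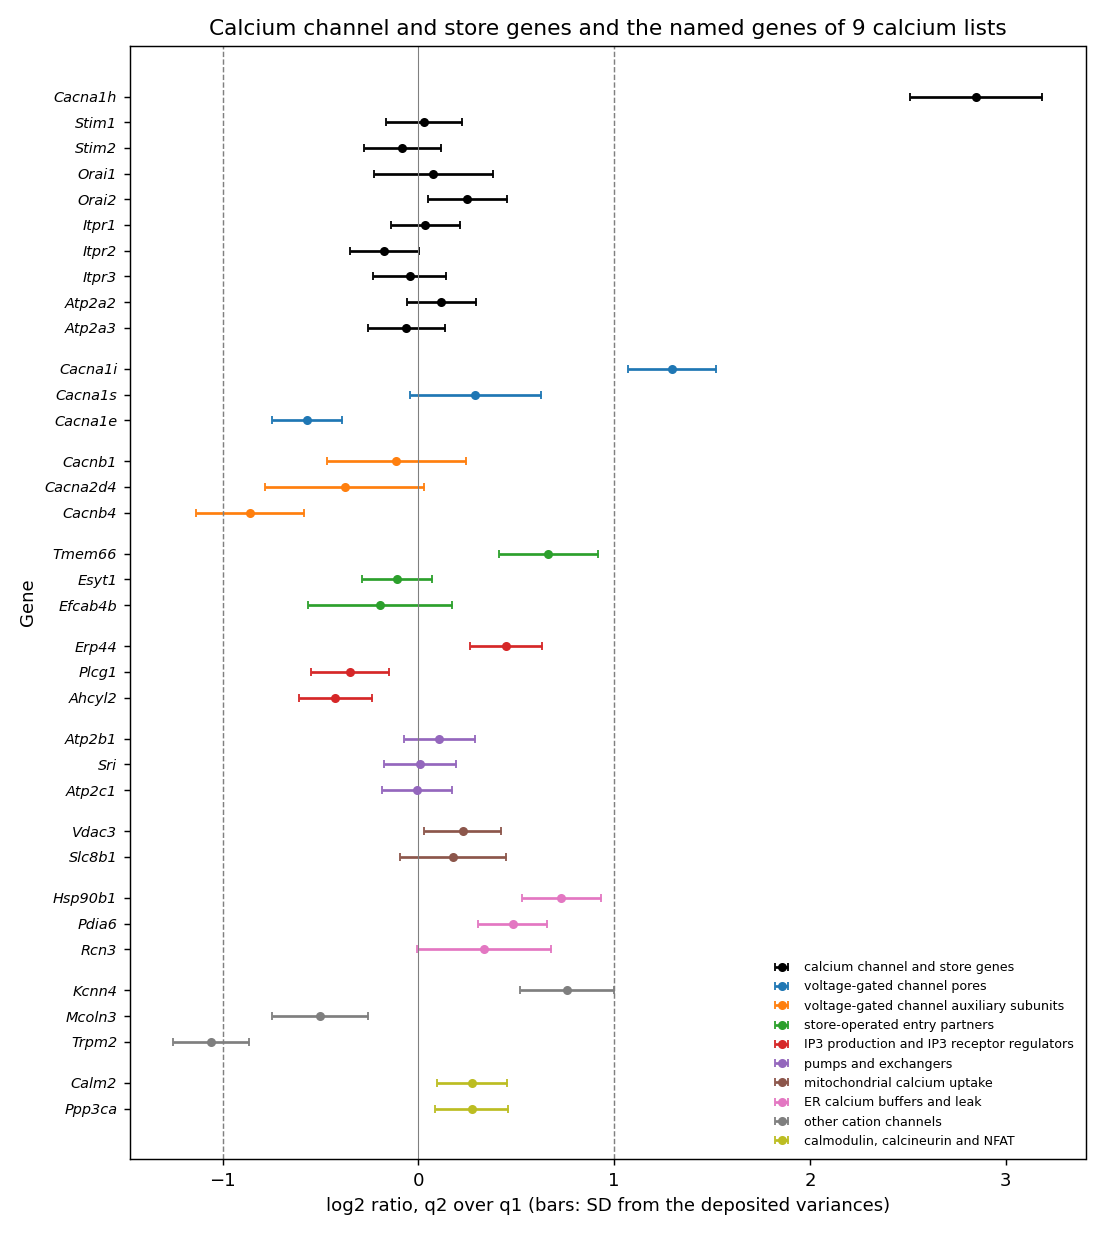
Log2 ratio of q2 over q1 (horizontal axis, bars: SD from the deposited variances, dashed lines at 2-fold) of the 10 calcium genes and of the genes named from each of 9 calcium lists, 1 gene per line and 1 colour per list. Cacna1h and Cacna1i lie beyond 2-fold toward q2 and Trpm2 toward q1, and the STIM, ORAI, IP3 receptor and SERCA genes lie near 0.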

How the data were processed

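Per the labels' protocols, total RNA was extracted with Trizol and an Illumina TruSeq RNA kit gave the libraries. Per the submitters' processing notes, cutadapt 1.8.1, TopHat2 2.0.14 and Cuffdiff 2.2.1 were used with mm10; the annotation, strand setting and filters are not given in the labels used here. The deposited table holds, per the file headers, Cuffdiff's estimated count of fragments per gene for q1 and q2 and other variance columns (squared fragments). How the deposited estimated counts were scaled, and whether a variance refers to 1 library or a condition, is not stated. The variances give a coefficient of variation between 0.988 and 1.07 times the running median of 101 genes of similar count for the 10 genes, so the SDs follow mainly the count.

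The SDs of log2 ratios and shares were propagated to first order from those variances. Counting intervals are Clopper-Pearson intervals that take the rounded fragments as plain counts. They cover at most counting error, and because the scaling is not stated their width may not match it. Called means at least 2-fold apart. The 10 genes, the 9 calcium lists and the 14 marker lists were chosen with earlier results of these data known. From each calcium list, up to 3 genes with the largest absolute ratio were named, apart from some genes not reported here; Orai3, Atp2a1, Cacna1g, Plcg2 and single markers were named after their values were seen. Positions, lengths and GC content came from GENCODE M21 (GRCm38); 8 of the 10 genes overlap another annotated gene there, and the 3 overlapping genes in the table (Tpsg1, Mir7661 and Mir7677) were at 0. Calculations used Python 3.11.15, numpy 2.4.6 and pandas 2.3.3 and were tested on simulated data. Alternatives were minimums of 20 and 500 fragments or none, pseudocounts of 0 and 10, equal totals, the median ratio, a 1.5-fold rule, 2 deposited SD, a correction for length, GC content and mean count, and union exon length.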

Additional observations from a re-analysis of the deposited data

How the results depend on the processing

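No paired analysis was possible because q2 and q1 each pool their libraries into 1 value per gene without replicate numbers; leaving out single libraries was impossible too. The log2 ratio of Cacna1h stayed between 2.71 and 2.92 under the pseudocounts, scalings and correction. Of 50 recomputed ratios of the 10 genes, 48 stayed inside the counting interval, and the other 2 were those of Itpr3 (0.113) and Atp2a3 (0.102) after correction for GC content, length and mean count; the cause was not tested. The count of the 10 genes at least 2-fold apart was 1 toward q2 and 0 toward q1 under each alternative. Over all genes the counts toward q2 and q1, 176 and 42, changed with the number of genes compared, to 693 and 313 with no minimum, to 346 and 102 at 20 fragments and to 39 and 14 at 500; they were 325 and 151 by the 1.5-fold rule and 398 and 202 by 2 deposited SD. Of 62 list medians, 60 moved by no more than the median half-width of the list genes' counting intervals. With no minimum the median of the auxiliary subunits changed sign, to 0.329 against -0.38, and that of pumps and exchangers was 0.106, each over 11 genes. The 0.329 is the ratio of Cacng6 and Cacng7, each with 0.256 fragments in q2 and 0 in q1. With union exon length 8 of the 10 genes kept their positions in each column. Depth limits Orai1 and Cacna1h in q1 most.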
